A study of Mus musculus with 6 samples.

Results

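The genes described here are 41 integrins and focal adhesion scaffold genes, chosen by symbol from the 22063 genes of the table. They comprise 12 integrin α subunits, 6 β subunits, the secreted integrin-like gene *Itgbl1*, 19 genes for proteins on the cytoplasmic side of the adhesion, both discoidin domain receptors and fibronectin. RNA-seq was performed on cardiac fibroblasts of mice with floxed *Tet3* alleles, transduced in culture with an adenovirus coding for GFP (GFP, labelled Control, n = 3) or for Cre (CRE, labelled *Tet3* knockout, n = 3). All 6 libraries carried the floxed alleles, received an adenovirus and were treated with TGF-β, so untreated fibroblasts were not analysed here. Cre was delivered to the whole culture rather than driven by a cell type's promoter. The study's reagent list names EGFP, a form of GFP, in both vectors and Cre only in the CRE vector. The vectors thus differ in their cargo as well as in recombination. The labels do not say which culture or animal each library came from, so the p-values measure the spread between these libraries.

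Between 17002126 and 20343590 reads were counted per library. *Tet3*, the recombined gene, had 1044, 965 and 1000 counts in GFP and 642, 649 and 637 counts in CRE, and fell by 0.72 on the log2 scale (adjusted p = 5.36e-05). Fibroblast markers such as *Col1a1* were present in every library, and the cardiomyocyte marker *Myh6* was at 0 counts in all 6. Another cardiomyocyte marker, *Tnnt2*, had 7 to 10 counts per library, and the endothelial marker *Cdh5* had 1323 to 2665. A lower value in a bulk library can come from fewer cells of a type or from less RNA per cell, which cannot be told apart here.

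Integrins are αβ heterodimers that bind matrix proteins outside the cell and, through talin and kindlin, the actin cytoskeleton inside it. Around their cytoplasmic tails a focal adhesion assembles, in which vinculin and tensins carry force to actin, the ILK, PINCH and parvin complex forms a scaffold, and FAK, Src and p130Cas relay signals. In cardiac fibroblasts this machinery senses the stiffness of the matrix, and integrins that contain αv, among them its pair with β8, release latent TGF-β from its carrier protein. The β1 subunit pairs with most α subunits, so the set of α genes expressed decides which collagens, laminins or fibronectin domains a cell can hold.

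Of the 41 genes, 40 had enough counts to be tested. *Itgb7*, a leukocyte subunit, had 1 to 5 counts per library and was not tested. With edgeR's quasi-likelihood test, 8 genes were higher and 17 lower in CRE at an adjusted p under 0.05, which is 62.5% of those tested against 51.2% of all 12862 genes tested. By direction, the background was 25.5% higher and 25.7% lower. The median log2 fold change was -0.07 over the 40 genes and 0.01 over all genes tested, and the median absolute change was 0.25 in each. Groups of CPM (read counts relative to the TMM-corrected size of the library) did not overlap for 26 of the 40 genes, against 59.6% of all genes tested. Of these, CRE was higher for 8 and lower for 18, with 30.0% and 29.6% of all genes tested. At an absolute log2 fold change of at least 0.5, 5 genes were higher and 7 lower, with 8.98% and 12.2% of all genes tested as background. At the threshold after the study's own, an unadjusted p under 0.05 with a fold over 1.5 or under 0.66, 5 were higher and 6 lower (7.52% and 10.3% of all genes tested). These counts by direction depended on scaling. With library size alone, which moved the median of all genes by 0.16, 17 members were higher and 11 lower against 43.0% and 16.2% of all genes tested, and over all genes the share of calls that were higher went from 49.8% to 72.6%. Of the 12 called genes at or beyond 0.5, 9 were among the 17 tested integrin subunits (5 higher, 4 lower) and 1 among the 19 cytoplasmic members (lower), and *Itgbl1* and *Fn1* were the others.

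**Figure D1:**
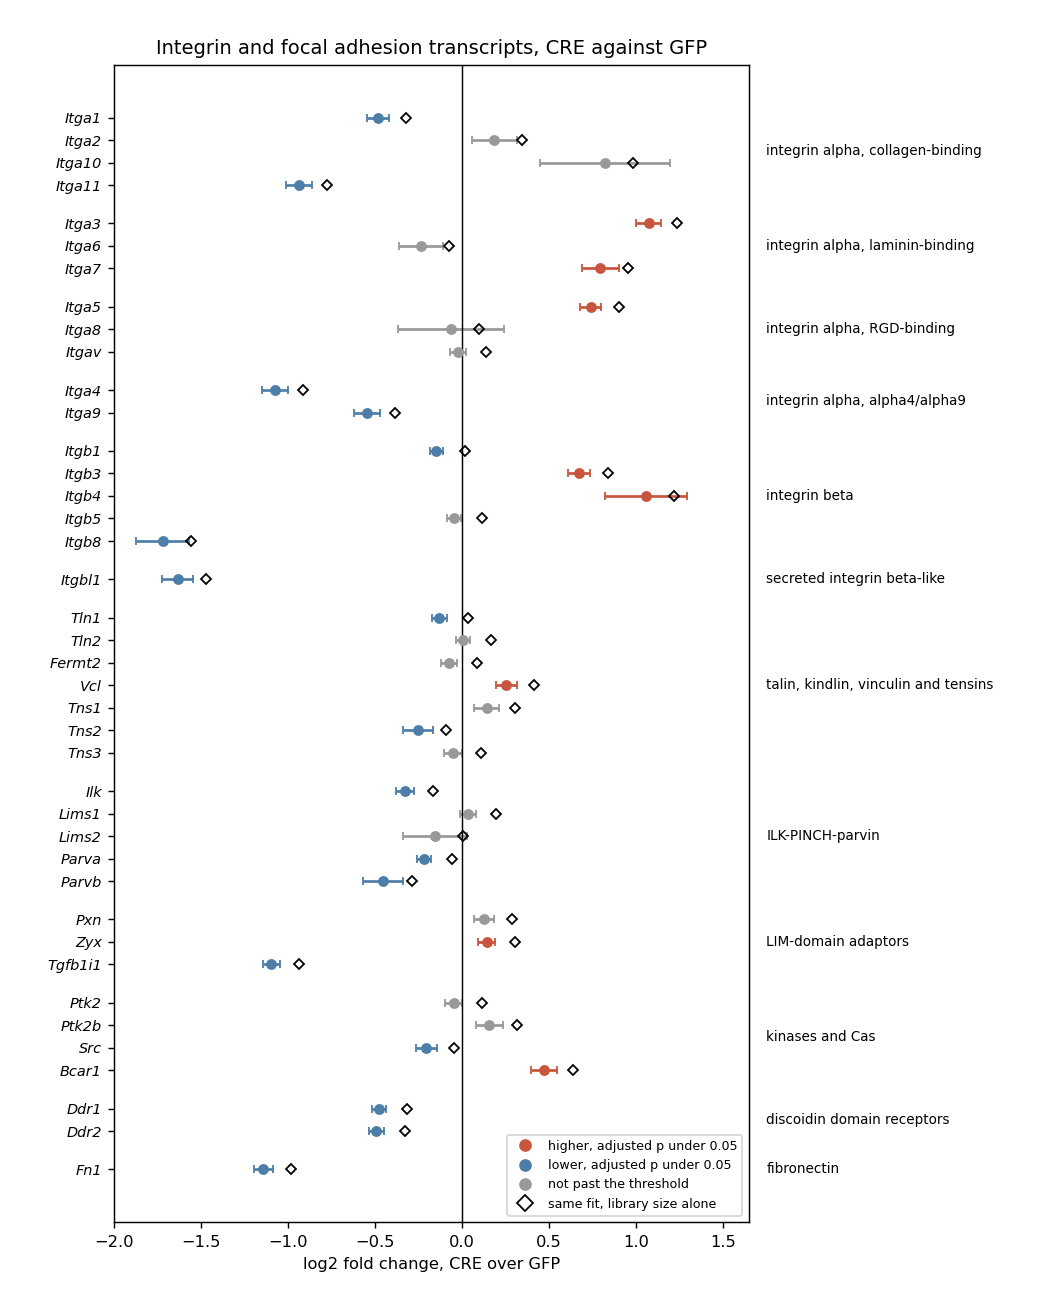
Log2 fold change of CRE over GFP (horizontal axis, TMM scaling) for each of the 40 tested genes, grouped by role (vertical axis). Filled points are edgeR estimates, coloured by call, bars the standard error, and open diamonds the same fit with library size alone. The ligand *Fn1*, *Itgbl1*, *Itgb8* and *Tgfb1i1* lie furthest to the left and *Itga3* and *Itgb4* furthest to the right. With library size alone all values shift to the right, which takes 9 of the small changes, but none of those at or beyond 0.5, across 0.

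TET3 acts on methylated cytosines in CpG pairs, so the CpG pairs before the start of some members are shown. The 3 members that fell most and the 3 that rose most were taken among called genes whose mean was no lower than 10 CPM and that had a RefSeq window of at least 200 bases outside the annotated gene. Sequences are RefSeq, GRCm38.p6, each read 5′ to 3′ on the strand of its gene and ending before the annotated gene, with CpG pairs in capitals. The first 3 belong to lower genes and the last 3 to higher genes.
Itga4: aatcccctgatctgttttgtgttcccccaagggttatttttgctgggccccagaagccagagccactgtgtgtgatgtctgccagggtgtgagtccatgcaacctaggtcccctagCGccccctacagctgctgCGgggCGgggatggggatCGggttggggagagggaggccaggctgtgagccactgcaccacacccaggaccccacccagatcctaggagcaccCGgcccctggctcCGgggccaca
Itga11: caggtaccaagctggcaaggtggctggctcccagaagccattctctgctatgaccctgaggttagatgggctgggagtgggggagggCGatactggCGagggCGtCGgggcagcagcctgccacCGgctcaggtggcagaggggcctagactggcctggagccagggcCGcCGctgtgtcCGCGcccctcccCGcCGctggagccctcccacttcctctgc
Itga1: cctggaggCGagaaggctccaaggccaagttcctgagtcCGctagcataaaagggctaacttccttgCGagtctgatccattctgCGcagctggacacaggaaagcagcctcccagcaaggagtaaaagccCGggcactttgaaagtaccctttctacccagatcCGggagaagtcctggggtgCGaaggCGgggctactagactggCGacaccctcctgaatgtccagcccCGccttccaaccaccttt
Itga5: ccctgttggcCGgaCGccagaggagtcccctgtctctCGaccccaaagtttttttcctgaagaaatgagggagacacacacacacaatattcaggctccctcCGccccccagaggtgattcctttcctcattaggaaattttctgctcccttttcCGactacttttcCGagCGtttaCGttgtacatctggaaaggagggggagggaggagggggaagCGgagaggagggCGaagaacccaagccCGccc
Bcar1: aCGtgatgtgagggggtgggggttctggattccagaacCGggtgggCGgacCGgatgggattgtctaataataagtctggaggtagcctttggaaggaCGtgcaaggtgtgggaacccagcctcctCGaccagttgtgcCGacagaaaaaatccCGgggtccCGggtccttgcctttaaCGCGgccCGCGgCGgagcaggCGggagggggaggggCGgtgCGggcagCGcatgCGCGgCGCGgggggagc
Vcl: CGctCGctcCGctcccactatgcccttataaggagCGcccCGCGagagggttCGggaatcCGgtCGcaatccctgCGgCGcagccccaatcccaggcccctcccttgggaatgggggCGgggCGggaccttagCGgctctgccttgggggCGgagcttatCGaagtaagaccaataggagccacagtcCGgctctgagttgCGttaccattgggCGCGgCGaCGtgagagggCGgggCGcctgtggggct
The *Itga4* window is chr2:79255176-79255425 (plus strand) with 6 CpG pairs, and the *Itga11* window is chr9:62677605-62677825 (plus strand, 221 bases) with 11. Those of *Itga1*, chr13:115101965-115102214 (minus strand), and *Itga5*, chr15:103366792-103367041 (minus strand), hold 10 and 11 pairs. The window of *Bcar1*, chr8:111743850-111744099 (minus strand), has 22 pairs and that of *Vcl*, chr14:20929148-20929397 (plus strand), 24. Thus the *Itga5* window, of a higher gene, had about as few pairs as those of the collagen receptors that were lower. DNA methylation was not measured in these libraries.

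A window of 250 bases before the RefSeq start was matched for 29 of the 41 genes. For the 5 genes with more than 1 window only the first listed was counted, here and for the motifs below. Windows of 1 gene can differ, as for *Lims1* with 28, 1 and 2 CpG pairs. The background holds every window of every gene, so the 2 sets are not alike. The median was 15 CpG pairs per window against 6 in all 32851 windows of the table. It was 22 in 5 higher genes, 11 in 14 lower genes and 18 in 9 genes that did not pass, with ranges of 11 to 24, 1 to 40 and 2 to 31 that overlap. The SP1 motif GGGCGG, searched on both strands as were the others, was in 16 of 29 windows (32.7% of all windows). It was in the counted windows of all 5 higher genes, 6 of 14 lower genes and 5 of 9 genes that did not pass, a difference that was not tested. The counted window of *Ilk* held 0 SP1 matches and its window 2 held 3. The TEAD motif GGAATG was in 3 counted windows (12.6% of all), the SMAD motif CAGACA in 5 (17.1%) and the AP-1 motif TGANTCA in 1 (6.75%). Among windows not counted, window 2 of *Ddr1* held 2 SMAD matches and window 3 held 1 AP-1 match. A CArG box, the element bound by serum response factor, was in 2 windows (1.47% of all). They were those of *Vcl*, with ccttataagg starting 227 bases before the RefSeq start, and *Fermt2*, with ccataaaagg starting 204 bases before it. The *Fermt2* window overlaps the annotated gene. A match of letters is not a measured binding site.

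Fibronectin, the matrix ligand of α5β1 and αvβ3, had the highest FPKM of the set. *Fn1* had 17362, 15642 and 15408 CPM in GFP and 7556, 6872 and 7476 CPM in CRE. The highest CRE library was below the lowest GFP library, with a log2 fold change of -1.14 (SE 0.05, adjusted p = 3.39e-07). The gene lies at chr1:71585520-71653200 (GRCm38, minus strand). In the deposited FPKM, which are per transcript length, the group means were 1931 and 983.

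Among the collagen-binding α subunits, *Itga11*, the fibrillar collagen receptor of fibroblasts, had 294, 255 and 273 CPM in GFP against 159, 132 and 139 CPM in CRE. The groups were well apart, at a log2 fold change of -0.94 (SE 0.07, adjusted p = 5.40e-06). *Itga1*, whose product binds basement membrane collagen, fell less, by 0.48 on the log2 scale (SE 0.06, adjusted p = 1.30e-04), from 46.6 ± 2.20 to 33.4 ± 1.90 CPM. The exons of *Itga1* overlap those of *Gm49395* on the same strand, so its reads may be shared. *Itga2*, another collagen receptor, had 10.1, 12.6 and 9.77 CPM in GFP and 14.1, 11.3 and 11.5 CPM in CRE, with overlapping groups and a log2 fold change of 0.18 (adjusted p = 0.261). It passed with library size alone (0.35, adjusted p = 0.039), while in log2(FPKM + 1) the value was -0.11. *Itga10*, a collagen receptor best known from cartilage, was near the detection limit, with 0.435, 0.846 and 0.416 CPM in GFP and 0.913, 0.831 and 1.27 CPM in CRE. It passed the filter on low counts only through the CRE group, its groups overlapped and its change of 0.82 (SE 0.37) had an adjusted p of 0.0908. Without GFP replicate 2, the highest GFP library, that p was 0.0361, and with library size alone 0.0426. *Itga10* also shares exon positions with *Gm42957* on the same strand.

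Both discoidin domain receptors, collagen-activated receptor tyrosine kinases that work beside the integrins, were lower. *Ddr1* went from 143 ± 1.88 to 103 ± 2.65 CPM, a log2 fold change of -0.48 (SE 0.04, adjusted p = 1.10e-05). For *Ddr2*, the form typical of fibroblasts, the means were 323 ± 9.14 and 229 ± 6.69 CPM and the change -0.49 (SE 0.04, adjusted p = 1.14e-05). Their ratio within a library overlapped between groups and differed by 0.01 (log2, exact permutation p of 0.9), or by -0.04 in FPKM. *Itga11*, by contrast, was lower relative to *Itga1* in all CRE libraries, by a log2 ratio of -0.46.

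Of the 3 laminin-binding α subunits, 2 were higher in CRE. *Itga3* had 22.3, 22.6 and 22.3 CPM in GFP and 44.5, 52.0 and 44.8 CPM in CRE, and *Itga7*, the laminin receptor of muscle, had 11.1, 12.1 and 12 CPM in GFP and 20.3, 23.2 and 17.7 CPM in CRE. *Itga3* lies at chr11:95044474-95076801 (GRCm38, minus strand). Neither gene's groups overlapped. Their log2 fold changes were 1.07 (SE 0.07, adjusted p = 1.93e-06) and 0.80 (SE 0.11, adjusted p = 1.62e-04). *Itga6*, the third of this class, did not pass in the main test or in any alternative, at 14.1 ± 2.53 CPM in GFP and 11.9 ± 0.665 CPM in CRE (adjusted p = 0.142). The log2 ratio of *Itga7* to *Itga6* was between -0.61 and -0.06 in GFP and between 0.52 and 0.91 in CRE. *Itgb4*, the β subunit that pairs with α6, was low in all libraries, at 1.37, 1.01 and 1.25 CPM in GFP and 2.90, 2.55 and 2.11 CPM in CRE. It rose by 1.06 on the log2 scale (SE 0.24, adjusted p = 0.00394), with groups that did not overlap. Opposite-strand genes share exon positions with *Itga7* (*Mettl7b*) and *Itgb4* (*B230344G16Rik*), as others do with *Itga4*, *Itga8*, *Itgav*, *Fn1*, *Ddr1*, *Ddr2*, *Tln1*, *Vcl*, *Zyx* and *Lims2*, and the strand setting of the counting is not given in the sources used here.

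The fibronectin receptor subunit gene *Itga5* had 476, 487 and 433 CPM in GFP and 758, 837 and 737 CPM in CRE. It was higher in every CRE library, by 0.74 (SE 0.06, adjusted p = 6.89e-06), while its ligand gene *Fn1* was lower. *Itgav*, the α subunit of the TGF-β-releasing integrins, had 544, 540.0 and 504 CPM in GFP and 504, 535 and 526 CPM in CRE. Its groups overlapped and its log2 fold change was -0.02 (SE 0.05, adjusted p = 0.72), which turned to 0.14 with library size alone (adjusted p = 0.0252) and in log2(FPKM + 1) (adjusted p = 0.0422). *Itga8*, a receptor for nephronectin and fibronectin, had 1.37, 1.41 and 1.56 CPM in GFP and 0.86, 1.88 and 1.43 CPM in CRE. Its spread within CRE was wider than the difference between groups (log2 fold change -0.06, SE 0.30, adjusted p = 0.885), and without CRE replicate 1, the lowest library, or with library size alone the sign turned.

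Both genes of the α4 and α9 class, whose products bind alternative fibronectin domains, VCAM1 and tenascin, were lower. *Itga4* had 24.4, 25.9 and 24.4 CPM in GFP and 11.5, 12.02 and 11.9 CPM in CRE, a log2 fold change of -1.08 (SE 0.07, adjusted p = 2.04e-06). For *Itga9* the values were 98.6, 90.0 and 89.3 CPM in GFP and 69.7, 56.5 and 64.0 CPM in CRE, with a change of -0.55 (SE 0.07, adjusted p = 1.70e-04). The groups of each gene were apart, and *Itga4* fell more, since the log2 ratio of *Itga9* to *Itga4* rose by 0.53 and did not overlap between groups.

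**Figure D2:**
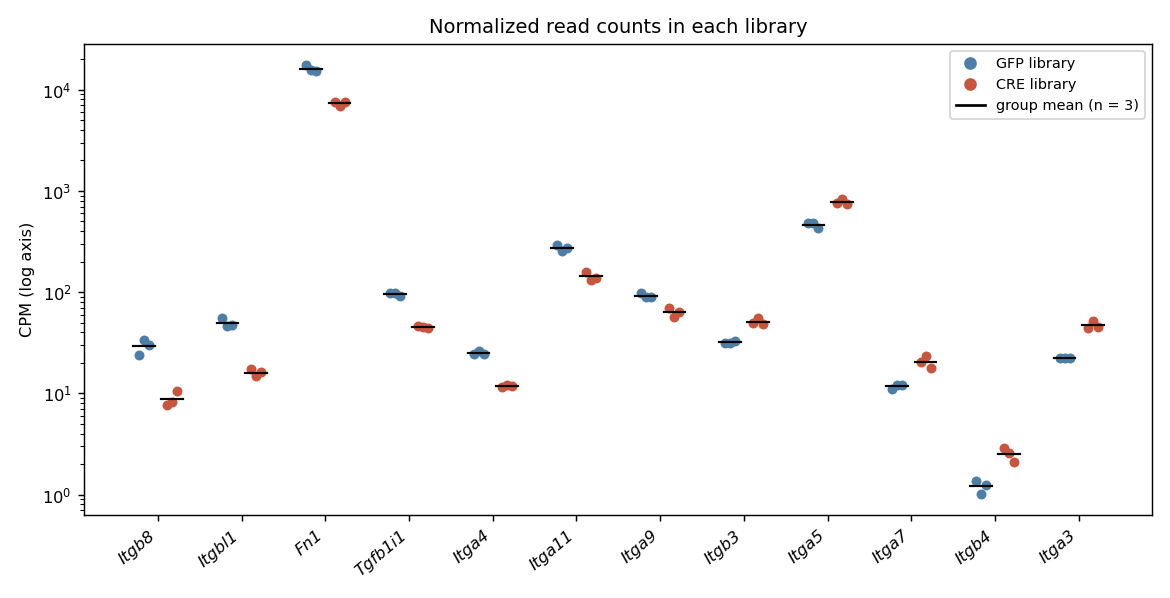
CPM per library (vertical axis, logarithmic) for the 12 genes with an adjusted p under 0.05, an absolute log2 fold change of at least 0.5 and groups that did not overlap. Points are single libraries and lines the group means, GFP beside CRE for each gene. *Fn1* lies between 6872 and 17362 CPM and *Itgb4* between 1.01 and 2.90 CPM, and for all 12 genes the 3 CRE points lie on one side of the 3 GFP points.

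Of the 5 tested β subunits, 2 were higher and 2 lower in CRE, 1 of the lower only under some scalings. *Itgb8*, whose product with αv releases latent TGF-β, had 23.8, 33.9 and 30.1 CPM in GFP and 7.74, 8.20 and 10.7 CPM in CRE. The gene lies at chr12:119158022-119238802 (GRCm38, minus strand). The groups were apart, with a log2 fold change of -1.72 (SE 0.15, adjusted p = 9.49e-06). *Itgb3*, the vitronectin and fibronectin receptor partner of αv, had 31.6, 31.4 and 32.8 CPM in GFP and 49.9, 55.2 and 48.1 CPM in CRE and was higher by 0.68 (SE 0.06, adjusted p = 1.60e-05). Neither set of groups overlapped. *Itgb5*, also an αv partner, had 1396, 1437 and 1375 CPM in GFP and 1357, 1335 and 1383 CPM in CRE. It did not pass (log2 fold change -0.05, adjusted p = 0.348) but came to 0.12 with library size alone (adjusted p = 0.0238). Within libraries, and so without regard to scaling, *Itgb8* lost 1.67 and *Itgb3* gained 0.72 on the log2 scale relative to *Itgb5*, with groups that did not overlap for either ratio. *Itgb1*, the common β subunit, had 2349, 2328 and 2318 CPM in GFP and 2100.0, 2078 and 2138 CPM in CRE. Its log2 fold change of -0.15 (SE 0.04, adjusted p = 0.00633) was past the threshold, though with library size alone it was 0.02 (adjusted p = 0.733) and in log2(FPKM + 1) also 0.02 (adjusted p = 0.748). The secreted gene *Itgbl1*, which carries β-like repeats and no membrane anchor, had 56.0, 46.3 and 47.7 CPM in GFP and 17.2, 14.8 and 16.1 CPM in CRE. *Itgbl1* lies at chr14:123659971-123975618 (GRCm38, plus strand). Its groups were far apart, with a log2 fold change of -1.64 (SE 0.09, adjusted p = 5.42e-07).

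Because levels of different genes can be compared only per length, shares of the summed FPKM of the 12 α genes and of the 6 β genes were taken within each library. *Itga5* made up 37.0%, 38.9% and 36.3% of α FPKM in GFP and 53.7%, 56.2% and 53.4% in CRE. The next gene, *Itgav*, went from 29.3% ± 0.26 to 25.2% ± 1.04 (SD, n = 3). The third, *Itga11*, went from 19.5% ± 1.29 to 8.87% ± 1.05 (SD, n = 3). Thus *Itga5*, *Itgav*, *Itga11* was the order in both groups, with neighbours in it apart in each library, but *Itga5* exceeded *Itgav* by a wider margin in CRE. *Itga9* followed with 6.58% and 3.91%, and the share of *Itga3* was 1.77% in GFP and 3.22% in CRE. Each of the other 7 α genes was under 2% in all libraries.

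The β side moved less in these terms. *Itgb1* held 56.6% ± 0.49 in GFP and 54.6% ± 0.28 in CRE, and *Itgb5* held 42.6% ± 0.45 and 44.4% ± 0.34 (SD, n = 3). *Itgb3* went from 0.51% to 0.87% and *Itgb8* from 0.32% to 0.10%, so the large fold changes were in minor β genes. Groups did not overlap for 10 of 12 α shares and 5 of 6 β shares, the exceptions being *Itga10*, *Itga8* and *Itgb7*. No share over all features was computed for such values, and among single genes 59.6% did not overlap. Shares add up to 100%, so a rise in 1 lowers the others: the *Itgav* share was lower in CRE while its FPKM was 78.5 ± 3.53 in GFP and 86.7 ± 3.69 in CRE (SD, n = 3), and *Itga2* and *Itga6* are among the 10 although neither passed as a gene. When shares were taken from counts per kb instead, the groups of *Itga2* overlapped. The exact two-sided permutation p was 0.1 for each of the 15, the smallest that 3 against 3 can give, and 0.12 after adjustment within the family. In FPKM, which carry no TMM scaling, the α sum was 268.1 ± 10.1 in GFP and 344.4 ± 14.6 in CRE, and the β sum 1023 ± 7.63 and 1074 ± 16.3 (SD, n = 3). In CPM with TMM scaling the β sum had the opposite direction, 3757 to 3831 in GFP and 3479 to 3582 in CRE.

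**Figure D3:**
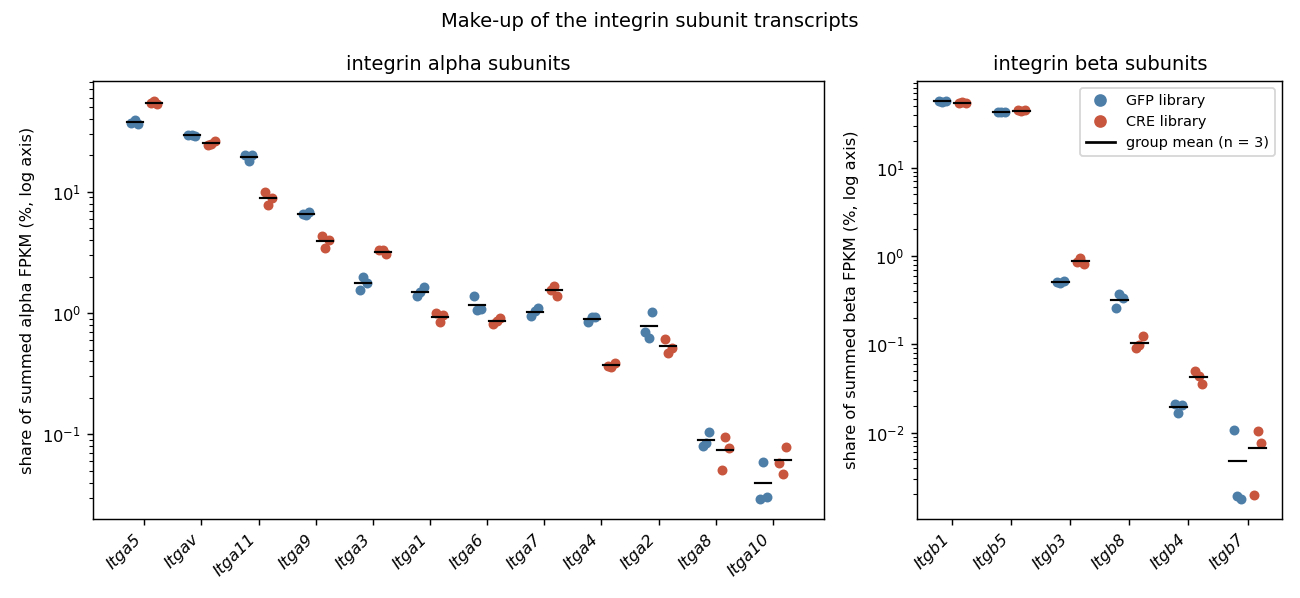
Share of each integrin gene in the summed FPKM of the 12 α genes (left) and of the 6 β genes (right), in percent on a logarithmic axis. Points are single libraries and lines group means (n = 3). The *Itga5* share is 36.3% to 38.9% in GFP and 53.4% to 56.2% in CRE, the *Itga11* share is lower in CRE, and *Itgb1* and *Itgb5* together hold nearly all of the β sum in each library.

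Inside the cell, the 7 members for talins, kindlin, vinculin and tensins had absolute log2 fold changes between 0.01 and 0.25. *Vcl* (vinculin, which bears force between talin and actin) was higher in each CRE library, by 0.25 (SE 0.06, adjusted p = 0.00485), from 320.2 ± 22.9 to 382 ± 18.7 CPM. *Tln1* (talin 1, the main activator of integrins) had 728, 678 and 677 CPM in GFP and 643, 624 and 635 CPM in CRE. Its log2 fold change of -0.13 (adjusted p = 0.0297) passed narrowly, lost the call without GFP replicate 1 (0.0763) or without any 1 of the CRE replicates (0.0604 to 0.104), and turned to 0.03 with library size alone. *Tln2*, the second talin, had 227, 236 and 228 CPM in GFP and 231, 236 and 226 CPM in CRE, a difference of 0.01 (adjusted p = 0.933). It passed as higher with library size alone (0.17, adjusted p = 0.00615) and in log2(FPKM + 1) (0.16, adjusted p = 0.0285). Against *Tln1* within libraries it was higher in CRE by 0.13, or by 0.09 without GFP replicate 1. *Fermt2* (kindlin-2, the partner of talin at the β tail) had 233, 229 and 218 CPM in GFP and 223, 214 and 208 CPM in CRE, with overlapping groups (log2 fold change -0.08, adjusted p = 0.2).

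Tensins bind both β tails and actin in the more mature, fibrillar adhesions. *Tns1* had 629.6, 534 and 528 CPM in GFP and 656, 635 and 574 CPM in CRE, and did not pass (log2 fold change 0.14, adjusted p = 0.135). Without GFP replicate 1, the highest GFP library, its change was 0.23 with an adjusted p of 0.00608, and with library size alone it was 0.30 (adjusted p = 0.00467). *Tns2* had 103, 87.2 and 86.0 CPM in GFP and 70.7, 75.2 and 85.8 CPM in CRE and passed as lower (-0.25, adjusted p = 0.0292). That call was lost without GFP replicate 1 (0.0729), CRE replicate 1 (0.119) or CRE replicate 2 (0.0905), and with library size alone (0.383). *Tns3* had 410.4, 379.6 and 384 CPM in GFP and 391, 384 and 358 CPM in CRE, with overlapping groups and an adjusted p of 0.428. Within libraries, the log2 count ratio to *Tns1* differed by -0.40 for *Tns2* and by -0.19 for *Tns3*, without overlap. In FPKM the differences were -0.33 and -0.15 and the groups of both ratios overlapped.

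In the ILK, PINCH and parvin complex, *Ilk* was lower in every CRE library, with a log2 fold change of -0.33 (SE 0.05, adjusted p = 3.33e-04), from 174 ± 8.28 to 139 ± 4.14 CPM. Its exons overlap those of *Rrp8* and *Taf10* on the opposite strand. *Parva* (α-parvin, which links ILK to actin) had 346, 328 and 330.4 CPM in GFP and 289, 286 and 287 CPM in CRE, a change of -0.22 (adjusted p = 0.00141). *Parvb* (β-parvin) had 10.6, 9.47 and 8.47 CPM in GFP and 6.88, 6.92 and 7.02 CPM in CRE and a change of -0.45 (adjusted p = 0.00792). Both parvin genes were lower in every CRE library under TMM, and with library size alone they stayed lower but lost the call, with adjusted p values of 0.251 and 0.0509. *Lims1* (PINCH1) had 263, 252 and 249 CPM in GFP and 272, 252 and 257 CPM in CRE, an overlap between groups (adjusted p = 0.585). It passed as higher, by 0.20, with library size alone. *Lims2* (PINCH2) was low, with 3.36, 2.99 and 3.79 CPM in GFP and 2.58, 3.43 and 3.12 CPM in CRE, and its groups overlapped too (adjusted p = 0.515).

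Among the LIM-domain adaptors, *Tgfb1i1* (Hic-5, a paxillin relative named for its induction by TGF-β) had 98.8, 98.5 and 92.5 CPM in GFP and 46.1, 44.9 and 44.4 CPM in CRE. Among the 19 cytoplasmic members it was the only one with an absolute log2 fold change of at least 0.5, at -1.10 (SE 0.05, adjusted p = 2.53e-07). *Pxn* (paxillin itself) had 78.1, 69.6 and 69.3 CPM in GFP and 75.2, 80.4 and 80.9 CPM in CRE, with overlap (log2 fold change 0.13, adjusted p = 0.1). It passed without GFP replicate 1 (0.18, adjusted p = 0.0154), with library size alone (0.29, adjusted p = 0.00193) and in log2(FPKM + 1) (0.27, adjusted p = 0.00724). The log2 ratio of *Tgfb1i1* to *Pxn* was 0.34, 0.50 and 0.42 in GFP and -0.70, -0.84 and -0.87 in CRE. The ratio, which is of counts and not per length, was above 0 in all GFP libraries and below 0 in all CRE libraries. Per length the order did not change: *Tgfb1i1* had a higher FPKM than *Pxn* in every library. Their mean FPKM were 52.0 and 19.0 in GFP and 27.3 and 23.1 in CRE. *Zyx* (zyxin, which gathers at strained actin fibres) had 227, 238 and 219 CPM in GFP and 259, 253 and 242 CPM in CRE and passed as higher (0.14, adjusted p = 0.03). The call was lost without GFP replicate 3 (0.12), CRE replicate 1 (0.0928) or CRE replicate 2 (0.0704).

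The kinases of the adhesion showed small differences. *Ptk2* (focal adhesion kinase, FAK) had 114, 108 and 113 CPM in GFP and 106, 114 and 103 CPM in CRE, with overlap and an adjusted p of 0.454. *Ptk2b* (its relative PYK2) had 63.8, 62.4 and 59.3 CPM in GFP and 76.0, 70.5 and 60.2 CPM in CRE and a change of 0.16 (adjusted p = 0.12). It passed without CRE replicate 3, at 0.25 and an adjusted p of 0.00883, and with library size alone. *Src*, the kinase that works with FAK, had 59.2, 60.6 and 64.3 CPM in GFP and 53.1, 49.8 and 56.7 CPM in CRE and fell by 0.21 on the log2 scale (adjusted p = 0.0153). The call for *Src* was lost without GFP replicate 3 (0.0645), CRE replicate 1 (0.0504) or CRE replicate 2 (0.0748), and with library size alone (0.548). *Bcar1* (p130Cas, the stretch-sensitive docking protein phosphorylated by both) was higher, from 70.2 ± 7.47 to 97.3 ± 5.95 CPM, a log2 fold change of 0.47 (SE 0.08, adjusted p = 4.67e-04).

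**Figure D4:**
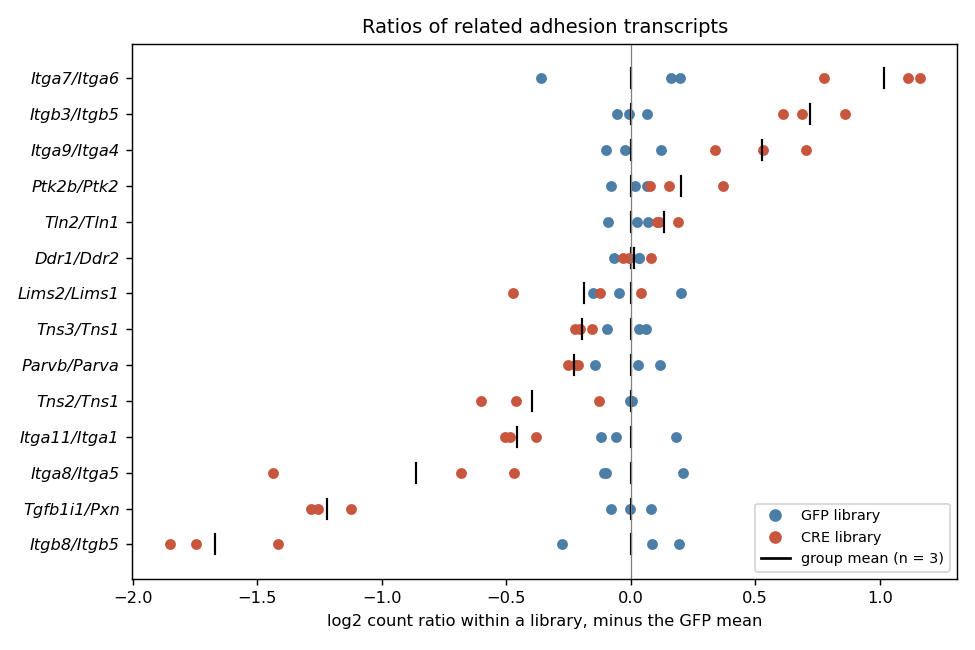
Log2 ratio of counts of 14 pairs of related members in each library, minus the GFP mean of that pair (horizontal axis). Points are single libraries and short lines group means (n = 3). In counts the CRE libraries lie apart from the GFP libraries in 12 pairs, from -1.67 on average for *Itgb8* over *Itgb5* to 1.02 for *Itga7* over *Itga6*, and overlap for *Lims2* over *Lims1* and *Ddr1* over *Ddr2*.

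In all, 14 ratios between related genes were computed with 0.5 added to each count, and 12 did not overlap between groups. In FPKM 10 did not, the tensin ratios being the others. Over all pairs of genes no such share was computed, and among single genes it was 59.6%. For the 12 the exact two-sided permutation p was 0.1, the smallest possible, or 0.117 adjusted over the 14. Besides those above, *Itga8* was lower against *Itga5* by 0.86 and *Parvb* against *Parva* by 0.23. *Ptk2b* was higher against *Ptk2* by 0.20, which was 0.12 without CRE replicate 1 and 0.48 in FPKM. *Lims2* over *Lims1* overlapped (p of 0.5). The largest difference among the 14 was that of *Itgb8* over *Itgb5*.

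Of 112 other cell-matrix adhesion genes, listed by their textbook roles, 103 were tested, of which 19 were higher and 44 lower with a median log2 fold change of -0.13, where 25.5% and 25.7% of all genes tested were higher and lower. With library size alone 33 were higher and 27 lower, where 43.0% and 16.2% of all genes tested were. Among 24 ligands and latent TGF-β carriers, 15 were lower and 0 higher. They included *Ltbp4*, a latent TGF-β binding protein, from 53.5 to 15.4 CPM (log2 fold change -1.79, adjusted p = 6.29e-07), the matricellular gene *Thbs2* (log2 fold change -1.09, adjusted p = 1.76e-06) and the α4β1 ligand gene *Vcam1* (log2 fold change -1.06, adjusted p = 2.01e-05). *Tnc*, the tenascin C gene and a ligand of α9, did not pass, at 1482 CPM in GFP and 1623 CPM in CRE (log2 fold change 0.13, adjusted p = 0.126). Among 33 adaptors and actin linkers, 6 were higher and 14 lower. They held linkers of integrin tails to actin that were lower, such as *Flna*, filamin A (2272 to 1389 CPM, log2 fold change -0.71, adjusted p = 1.89e-06), and *Actn1*, α-actinin 1 (log2 fold change -0.32, adjusted p = 9.62e-04), both chosen after their values were seen. *Sorbs2*, a vinculin-binding adaptor (log2 fold change -1.69, adjusted p = 1.05e-06), had the lowest value among those with at least 10 CPM, while the LIM genes *Ajuba* (log2 fold change 0.56, adjusted p = 7.35e-04) and *Tes* (log2 fold change 0.52, adjusted p = 2.11e-04) were higher. Signalling genes were 9 higher and 8 lower of 27. *Crk*, an adaptor that binds p130Cas, was among the higher (log2 fold change 0.42, adjusted p = 1.93e-05). Of 15 other receptors, 4 were higher and 6 lower, with *Cspg4*, a proteoglycan also used as a pericyte marker, at log2 fold change 1.03, adjusted p = 0.00378. Of 4 other integrin subunits tested, 1 was lower, the leukocyte gene *Itgb2*, with 51, 65 and 72 counts in GFP and 11, 18 and 13 counts in CRE.

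Markers of several cell types moved along with these genes, and their part in the results above was not tested. The background for the counts is again 25.5% of all genes tested higher and 25.7% lower. Of 14 endothelial markers 12 were lower and 0 higher, with a summed level of 463.6 to 513.6 CPM in GFP and 233.3 to 262.9 CPM in CRE. Of the 12, *Cldn5*, passed the filter on low counts only through GFP, where it was high. Of 11 fibroblast markers, *Ddr2* among them, 10 were lower and 0 higher (39144 to 40396 against 21975 to 24046 CPM). Thus the fibroblast and endothelial lists were both lower, the direction of *Fn1*, *Itga11*, *Itgb8* and *Itgbl1*. Of 14 macrophage and leukocyte markers 7 were tested and 4 were lower (62.7 to 70.9 against 36.3 to 39.9 CPM). Of 11 tested smooth muscle and pericyte markers 1 was higher and 6 lower (1095 to 1249.5 against 927.3 to 944.2 CPM), with *Higd1b* at 0. Epithelial and mesothelial markers, which can accompany *Itgb4* and *Itga3*, summed to 7.77 to 9.19 CPM in GFP and 8.55 to 12.6 CPM in CRE, with 3 of 4 tested higher and 1 lower. Of the 3, *Krt18* and *Krt19* passed the filter only through CRE, where they were high. Of 10 cardiomyocyte markers only *Nppb* was tested. It had 2, 1 and 3 counts in GFP and 28, 21 and 13 in CRE and passed the filter on low counts only through CRE, which fixed its direction (list sum 0.96 to 1.30 against 1.85 to 3.12 CPM). None of 4 tested platelet markers passed by edgeR (3.85 to 6.65 against 4.43 to 4.65 CPM), and of 3 Schwann and neuronal markers 1 was higher and 1 lower (35.2 to 37.1 against 43.7 to 53.6 CPM).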

How the data were processed

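RNA-seq was performed on 6 libraries of mouse cardiac fibroblasts, 3 GFP and 3 CRE, whose titles gave group and number. According to the study's methods, the authors aligned trimmed reads to GRCm38 with HISAT2, counted them per gene with HTSeq-count and computed FPKM with Cufflinks. Whether counting used the strand is not given in the sources used here, and the exons of 15 members overlap those of another gene. The labels and the methods name different extraction and library kits. The authors deposited 1 table of 22063 genes with raw counts, not normalized, and FPKM per library, which are scaled per transcript length and library. Its 3 columns of the authors' own comparison (log2 fold change, p-value and false discovery rate) and 2 columns of group means were not used.

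The count fit used edgeR 4.0.16 in R 4.3.3. The filter was filterByExpr with a minimum count of 10 and a minimum total of 15, passed by 12862 genes. TMM factors were 0.944 to 0.947 (GFP) and 1.05 to 1.06 (CRE), and CPM are counts over the effective library size. Differences between groups were tested by quasi-likelihood, two-sided, with Benjamini-Hochberg adjustment over all tested genes, after the script was tested on simulated data. Shares and ratios within libraries were compared by exact two-sided permutation tests in Python 3.11.15 with scipy 1.17.1. Alternatives were RLE, upper-quartile and library-size scaling, other filters, DESeq2 1.42.0, limma 3.58.1 (voom, and log2 of FPKM with 1 or 0.1 added), a replicate block, an adjusted p under 0.01, a threshold after the study's (unadjusted p under 0.05 with a fold over 1.5 or under 0.66), 1 in place of 0.5 added to ratios, ratios of FPKM, counts per kb in place of FPKM for shares, and leaving out each library.

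The members and all gene lists were chosen with earlier results of these data known, so their counts are descriptions. All 41 members are named. Values in every library are given for members with an adjusted p under 0.05, an absolute log2 fold change of at least 0.5 and groups that do not overlap, and for those whose call or direction changes under an alternative. Of the wider list, the called genes named are the 4 at either end of the log2 fold change, from a mean of 10 CPM upward, besides *Itgb2*, *Flna*, *Actn1* and *Tnc*, which were chosen after their values were seen.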

Additional observations from a re-analysis of the deposited data

How the results depend on the processing

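Of 25 members past the threshold, 18 kept call and direction in all 16 alternative fits, among them the 12 with values in full for their size, and 7 did not. Of the 7, 6 lost the call with the same direction in at least 1 fit, and *Itgb1* and *Tln1* turned direction without passing. Counts of members higher and lower, 8 and 17 in the main test, came to 17 and 11 with library size alone (43.0% and 16.2% of all genes tested), 15 and 11 with limma on log2(FPKM + 1) (38.7% and 14.9%) or log2(FPKM + 0.1) (38.8% and 14.8%), and 5 and 6 at the study's threshold (7.52% and 10.3% of all genes). The wider list, 19 and 44, came to 33 and 27, 31 and 26, 31 and 27, and 2 and 12 in that order, with the same shares of all genes. Leaving out 1 library gave 7 to 10 members higher and 14 to 17 lower, and 16 to 21 and 37 to 44 for the wider list. Library size alone has no correction for composition, and it and the FPKM fits raise the median of all genes by 0.16, 0.13 and 0.16. Direction turned for 11 members. With library size alone the turned values were 0.10 for *Itga8*, 0.14 for *Itgav*, 0.0152 for *Itgb1*, 0.12 for *Itgb5*, 0.0322 for *Tln1*, 0.0872 for *Fermt2*, 0.11 for *Tns3*, 0.0079 for *Lims2* and 0.11 for *Ptk2*. In log2(FPKM + 1) and log2(FPKM + 0.1) they were -0.11 and -0.16 for *Itga2*, 0.0187 and 0.0485 for *Itga8*, 0.14 and 0.14 for *Itgav*, 0.0178 and 0.0178 for *Itgb1*, 0.13 and 0.13 for *Itgb5*, 0.0221 and 0.0224 for *Tln1*, 0.0948 and 0.0960 for *Fermt2*, and 0.11 and 0.11 for *Tns3*. *Tln2* was at -0.0009 with no filter beyond 1 count. Without 1 library, *Itga8* ranged from -0.33 to 0.19, *Itgav* from -0.0574 to 0.0071 and *Tln2* from -0.0078 to 0.0224. With the replicate number as a block, 9 members were higher and 17 lower, 21 and 45 of the wider list, and 3260 and 3373 of all genes (3277 and 3306 without it), and *Tns1* passed (0.14, adjusted p = 0.0263). The libraries share only a number: deviations from group means correlated at 0.07, 0.17 and 0.0024 for numbers 1, 2 and 3, and GFP replicate 3 correlated best with CRE replicate 1 (0.03). Of 14 count ratios, 12 did not overlap between groups, against 10 in FPKM, and 12 without any 1 library. The other changes were not tested for a cause. Low counts limit *Itga10*, *Itga8*, *Itgb4*, *Itgb7* and *Lims2*.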

Other observations

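FPKM and counts of *Ptk2* ranked the libraries differently. FPKM were 42.2, 49.3 and 47.2 in GFP and 42.4, 44.4 and 37.5 in CRE, while counts were 1834, 1911 and 2179 in GFP and 1979, 2065 and 1954 in CRE. These counts are not corrected for library size. In CPM the values were 114, 108 and 113 in GFP and 106, 114 and 103 in CRE. CRE replicate 3 was thus the lowest library in both FPKM and CPM. GFP replicate 1 had the lowest FPKM of the GFP libraries but the highest CPM of them. For *Itga2*, FPKM were 1.92, 1.68 and 2.64 in GFP and 2.08, 1.70 and 1.71 in CRE against counts of 162, 224 and 188 in GFP and 262, 205 and 217 in CRE. GFP replicate 3 had the highest FPKM of the 6 libraries, but a count and a CPM (9.77) below those of all CRE libraries.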
